A study of Mus musculus with 35 samples.

Results

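The accessibility of the chromatin around Otx2 and Pou3f1 was followed in mouse embryonic stem cells on their way to epiblast-like cells. The members are the 2-kb tiles of the genome (GRCm38) from 100 kb before to 100 kb after Otx2 and from 30 kb before to 30 kb after Pou3f1. They came to 106 tiles around Otx2 and 33 around Pou3f1, 139 of the 1362779 tiles measured. The tiles were taken by position around the 2 genes, and the genes were picked with earlier results of these data known. Otx2 lies on chromosome 14 (chr14:48656781-48667644, minus strand) and Pou3f1 on chromosome 4 (chr4:124657646-124660655). The annotation used here gives no strand for Pou3f1, and "before" it means at lower coordinates.

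Open chromatin was mapped with ATAC-seq, which uses a transposase to cut accessible DNA and tag it with sequencing adapters. TET_KO is a line without Tet1, Tet2 and Tet3, whose products oxidise methylated cytosine, and TET_WT is the line it was made from. DNMT_KO is a line without the methyltransferase genes Dnmt1, Dnmt3a and Dnmt3b, and DNMT_WT is its parent. The 4 lines were grown as stem cells in 2i/Lif (D0) and sampled as epiblast-like cells on day 1 (D1) and day 2 (D2), in 3 libraries per line and day except TET_KO at D2, which had 2, or 35 libraries in all. Whether a knockout line is 1 clone and whether replicates came from separate cultures is not stated, so p-values measure the spread between these libraries, which may be technical. The deleted exons are not given, so the genotypes could not be checked in these data.

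Otx2 is a homeodomain transcription factor of the OTX family, and Pou3f1, also called Oct6, is a POU-domain factor that binds octamer-like DNA. Both are known markers of the formative state, the stage between naive and primed pluripotency, and OTX2 is known to recruit POU5F1 (Oct4) to new enhancers as cells enter it. Otx2 is also known for its role in the anterior of the embryo and in the head, and Pou3f1 in neural and glial cells. An open tile is DNA the transposase can reach, and is not a measure of the RNA or protein of either gene. In bulk libraries, more cells with an open site and a more open site per cell cannot be told apart.

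The surroundings of 3 of the 4 annotated Otx2 start sites are shown, because 2 of the 4 tiles called between the parental lines lie over and beside the outermost start. CpG sites are marked because DNMT_KO lacks enzymes that methylate them and TET_KO enzymes that oxidise methylated cytosine. The parental lines carry neither knockout. The tiles that hold the middle and the inner start were not called in any comparison by limma. Each is the minus strand of GRCm38.p6 from RefSeq, 5′ to 3′, with every CpG in capitals.
Outermost start, chr14:48667595-48667894: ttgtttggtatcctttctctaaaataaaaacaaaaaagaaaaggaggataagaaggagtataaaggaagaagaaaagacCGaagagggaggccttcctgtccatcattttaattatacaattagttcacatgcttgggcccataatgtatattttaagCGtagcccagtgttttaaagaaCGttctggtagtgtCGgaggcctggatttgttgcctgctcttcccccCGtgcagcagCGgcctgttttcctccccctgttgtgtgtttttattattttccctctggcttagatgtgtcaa
Middle start, chr14:48665060-48665359: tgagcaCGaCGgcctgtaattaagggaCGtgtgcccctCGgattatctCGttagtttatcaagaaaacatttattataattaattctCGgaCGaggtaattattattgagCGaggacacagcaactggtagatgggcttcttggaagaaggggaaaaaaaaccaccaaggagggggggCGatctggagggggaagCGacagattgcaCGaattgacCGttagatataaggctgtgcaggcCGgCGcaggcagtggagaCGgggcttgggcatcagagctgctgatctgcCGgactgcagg
Inner start, chr14:48662685-48662984: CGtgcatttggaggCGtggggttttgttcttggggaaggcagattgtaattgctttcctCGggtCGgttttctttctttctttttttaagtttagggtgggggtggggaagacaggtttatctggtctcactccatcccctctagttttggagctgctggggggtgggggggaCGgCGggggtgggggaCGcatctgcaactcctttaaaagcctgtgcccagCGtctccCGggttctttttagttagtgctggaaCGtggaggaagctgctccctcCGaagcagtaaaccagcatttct
The outermost stretch held 6 CpG sites and 41.7% G and C, the middle one 16 CpG and 51.0%, and the inner one 11 CpG and 53.7%. The median over 32851 promoters of the same length was 7 CpG, and 56.4%, 33.0% and 41.4% of them held at least as many as the outermost, middle and inner stretch. The remaining start (chr14:48667459-48667758) overlaps the outermost one and had 8 CpG. The letters TAATCC or GGATTA, the core that OTX-type homeodomains bind on either strand, were found once, in the middle stretch, and occur in 7.06% of all promoters. The octamer ATGCAAAT, searched on both strands, was in none of the 4 stretches and in 1.74% of all promoters.

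The 35 libraries held 4172681 to 23686796 reads. The D1 libraries held 5.62 to 46.8% mitochondrial reads and the others none, and the sum over tiles was 2.03 to 2.05 times the library total behind the deposited values at D1 and 1.02 to 1.15 times at D0 and D2. A difference of D1 from D0 can therefore not be told apart from a difference in processing. Levels below are the reads in a 2-kb tile per 1000000 reads on the autosomes and X (RPM). Of the 139 tiles, 34 entered the test (16 around Otx2 and 18 around Pou3f1), as part of 141241 tiles tested across the genome with limma on quantile-normalised log2 values, and a call is a Benjamini-Hochberg adjusted p under 0.05. A tile that rose had more accessibility relative to the other tiles of its library. The reads behind a single value in the tiles named below were 0 to 101, with a median of 13, so that single values are uncertain: 4 reads gave 0.638 RPM with a 95% counting interval of 0.174 to 1.63, and 36 reads gave 2.87 RPM with an interval of 2.01 to 3.98 (exact Clopper-Pearson, counting error only).

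Around Pou3f1, accessibility was higher at D2 than at D0 in all 4 lines, and the increase lay mostly in the 30 kb before the gene, in the lncRNA gene Gm2164, more than over the gene itself. Summed over the 33 tiles, the window had 48.5 ± 6.88 RPM at D2 against 34.0 ± 2.32 RPM at D0 in TET_KO (SD, n = 2 and 3), a ratio of 1.43. In TET_WT it had 53.4 ± 3.12 RPM at D2 against 39.3 ± 0.70 RPM at D0 (SD, n = 3 each), a ratio of 1.36. In DNMT_KO it had 55.3 ± 2.60 RPM at D2 against 35.8 ± 8.79 RPM at D0, and in DNMT_WT 57.7 ± 0.657 RPM at D2 against 39.9 ± 5.49 RPM at D0, ratios of 1.54 and 1.45. Every D2 library was above every D0 library of its own line. As a ratio to the mean untested tile of that chromosome, D2 was 1.38, 1.37, 1.44 and 1.41 times D0 in TET_KO, TET_WT, DNMT_KO and DNMT_WT.

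**Figure D1:**
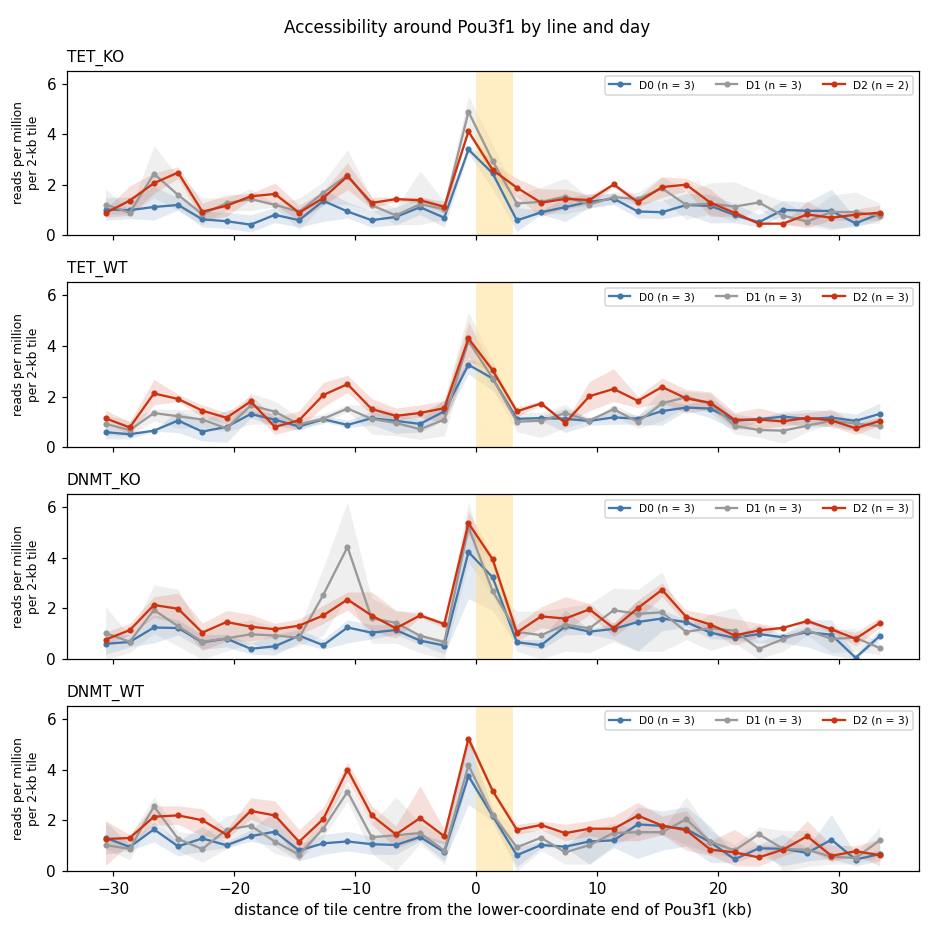
Mean RPM in each 2-kb tile around Pou3f1 by distance from the lower-coordinate end of the gene (kb), 1 panel per line, with D0 in blue, D1 in grey and D2 in red. Bands span the lowest to the highest library, the yellow bar is the gene body, and D2 lies above D0 most clearly in the 30 kb before the gene, where its summed level was 1.61 to 1.82 times that of D0.

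The 15 tiles before the gene had 22.1 RPM at D2 against 12.9 RPM at D0 in TET_KO, and 22.5 against 14 RPM in TET_WT. They had 22.5 RPM at D2 against 12.3 RPM at D0 in DNMT_KO, and 29.2 against 17.3 RPM in DNMT_WT. These are ratios of 1.72, 1.61, 1.82 and 1.69, with no overlap between the days in any line. The tiles over the gene had ratios of 1.33, 1.23, 1.28 and 1.53, and D2 and D0 libraries overlapped in TET_WT and DNMT_KO. The tiles after the gene had ratios of 1.21, 1.22, 1.46 and 1.16, with overlap in TET_KO and DNMT_WT. The difference between the stretches was not tested.

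Of the 18 tested tiles, 1 rose at D2 in TET_KO, 2 in TET_WT, 1 in DNMT_KO and 1 in DNMT_WT, and none fell. Across the genome 0.179%, 0.336%, 0.502% and 0.594% of tiles rose in these lines and 0.927%, 0.707%, 2% and 1.71% fell, so that 0 of 18 lower is near the background. The median log2 change of the 18 tiles was 0.55, 0.62, 0.81 and 0.67, against 0.04, 0.02, 0.04 and 0.02 over all tested tiles. The change was positive in 18, 17, 18 and 16 of the 18 tiles, and in 15 of them it was positive in all 4 lines, which held for 14.2% of all tested tiles. With no filter on level, it was positive in 28, 26, 31 and 27 of the 33 tiles of the window.

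The tile 10.6 kb before the gene (chr4:124646001-124648000, in Gm2164) was called in both parental lines. In TET_KO it had 1.81 and 2.87 RPM at D2 against 1.32, 0.693 and 0.829 RPM at D0, and in TET_WT 2.47, 2.17 and 2.85 RPM at D2 against 0.802, 0.773 and 1.07 RPM at D0. In DNMT_KO it had 2.47, 1.94 and 2.65 RPM at D2 against 0.638, 1.55 and 1.55 RPM at D0, and in DNMT_WT 4.15, 4.30 and 3.56 RPM at D2 against 1.15, 1.56 and 0.788 RPM at D0. All D2 libraries were above all D0 libraries of their line, and DNMT_WT reached the highest D2 levels of the 4 lines. The log2 change was 1.78 ± 0.38 in TET_WT (SE, limma adjusted p = 0.00623) and 1.96 ± 0.38 in DNMT_WT (adjusted p = 0.0011). It was 1.38 ± 0.43 in TET_KO (adjusted p = 0.118) and 1.14 ± 0.38 in DNMT_KO (adjusted p = 0.104), which did not pass. Without TET_WT D0 replicate 1 the TET_WT call was lost (adjusted p = 0.0590), while the DNMT_WT call held without any single library (adjusted p 0.00068 to 0.0205). The TET_WT call was also lost with the deposited values, no filter on level, thinned reads or the groups of the contrast alone (adjusted p up to 0.71). Among these settings the DNMT_WT call was lost with thinned reads only (adjusted p = 0.244).

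The tile 26.6 kb before the gene (chr4:124630001-124632000) rose in TET_WT. It had 2.01, 1.69 and 2.68 RPM at D2 against 0.633, 0.676 and 0.661 RPM at D0 in TET_WT, with no overlap, and a log2 change of 2.06 ± 0.43 (limma adjusted p = 0.00427). In DNMT_WT it had 1.80, 2.05 and 2.57 RPM at D2 against 1.15, 1.95 and 1.84 RPM at D0, where the days overlap, and a log2 change of 0.46 ± 0.43 (adjusted p = 0.719). It had a log2 change of 1.17 ± 0.48 in TET_KO (adjusted p = 0.337) and 0.97 ± 0.43 in DNMT_KO (adjusted p = 0.275). The difference between the parental lines in this change was -1.60 ± 0.61 (DNMT_WT minus TET_WT, unadjusted p = 0.011, adjusted p = 1), so the lines were not shown to differ. The TET_WT call held without any single library (limma adjusted p up to 0.0486). It was lost with the deposited values, no filter on level, thinned reads or the groups of the contrast alone. Over these settings the log2 change went down to 0.557 and the adjusted p up to 0.862.

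The calls in the knockout lines were at other tiles before the gene. The tile 18.6 kb before the gene (chr4:124638001-124640000) had 1.66 and 1.44 RPM at D2 against 0.813, 0.139 and 0.331 RPM at D0 in TET_KO, without overlap, and rose by 2.09 ± 0.54 on the log2 scale (limma adjusted p = 0.0328). In TET_WT it had 1.46, 2.05 and 1.93 RPM at D2 against 1.44, 1.35 and 1.16 RPM at D0, a change of 0.51 ± 0.48 (adjusted p = 0.916). Its D0 level in the knockouts lay below that of the parental lines, at 0.638, 0.194 and 0.389 RPM in DNMT_KO against 1.64, 1.17 and 1.31 RPM in DNMT_WT, and the 2 D0 differences were -1.64 ± 0.48 in TET_KO against TET_WT (adjusted p = 0.142) and -1.72 ± 0.48 in DNMT_KO against DNMT_WT (adjusted p = 0.537). Neither passed the test. The tile 12.6 kb before the gene (chr4:124644001-124646000) had 1.65, 1.41 and 2.12 RPM at D2 against 0.478, 0.389 and 0.777 RPM at D0 in DNMT_KO and rose by 1.67 ± 0.46 (adjusted p = 0.030). Each call was lost when any 1 of 4 libraries was left out: for TET_KO without D0 replicate 2 or 3 or D2 replicate 1 or 3 (adjusted p up to 0.338), for DNMT_KO without D0 replicate 1 or 2 or D2 replicate 1 or 3 (up to 0.140). Both calls were also lost with voom on the reads, the deposited values, no filter on level, thinned reads or the groups of the contrast alone. The TET_KO call was lost with a pseudocount of 3 reads as well.

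The tiles 18.6 and 10.6 kb before the gene were the 2 of 18 in which every D2 library was above every D0 library in each of the 4 lines, which held for 0.219% of all tested tiles. Counted line by line, 9 of 18 tiles in TET_KO, 10 in TET_WT, 9 in DNMT_KO and 10 in DNMT_WT had all D2 libraries above all D0 libraries. The shares over all tested tiles were 14.5%, 8.39%, 8.16% and 8.13%. No tile had all D2 libraries below all D0 libraries in any line. This held for 13.6%, 9.17%, 9.29% and 8.74% of all tested tiles in the same order of lines, so 0 of 18 in a line says little.

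The tile over the lower-coordinate end of Pou3f1 (chr4:124656001-124658000), which also holds the end of Gm2164, was already open at D0. It had 4.07 and 4.15 RPM at D2 against 3.25, 3.46 and 3.48 RPM at D0 in TET_KO, and 3.38, 4.58 and 4.95 RPM at D2 against 3.42, 2.90 and 3.47 RPM at D0 in TET_WT. It had 5.36, 4.93 and 5.84 RPM at D2 against 2.39, 4.86 and 5.44 RPM at D0 in DNMT_KO, and 5.42, 5.32 and 4.95 RPM at D2 against 2.62, 3.51 and 5.12 RPM at D0 in DNMT_WT. The days overlapped in all lines but TET_KO. The log2 changes were 0.31 ± 0.30, 0.28 ± 0.27, 0.83 ± 0.27 and 0.63 ± 0.27 in TET_KO, TET_WT, DNMT_KO and DNMT_WT, and none passed the test (limma adjusted p 0.841, 0.916, 0.0829 and 0.25). The tile over the other end of the gene (chr4:124660001-124662000) had log2 changes of 2.04 ± 0.68 in TET_KO (adjusted p = 0.166) and 1.63 ± 0.61 in DNMT_WT (adjusted p = 0.171), which did not pass.

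An intergenic tile of higher level lay beyond the gene, 15.4 kb from its lower-coordinate end (chr4:124672001-124674000). It had 1.51 and 2.31 RPM at D2 against 0.712, 1.39 and 0.663 RPM at D0 in TET_KO, and 2.74, 2.65 and 1.76 RPM at D2 against 1.52, 0.870 and 1.90 RPM at D0 in TET_WT. In DNMT_KO it had 2.75, 2.47 and 3.01 RPM at D2 against 1.12, 1.94 and 1.75 RPM at D0, and in DNMT_WT 2.17, 1.43 and 1.78 RPM at D2 against 0.818, 2.15 and 2.36 RPM at D0. The days overlapped in both parental lines, and the tile was not called in any line.

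**Figure D2:**
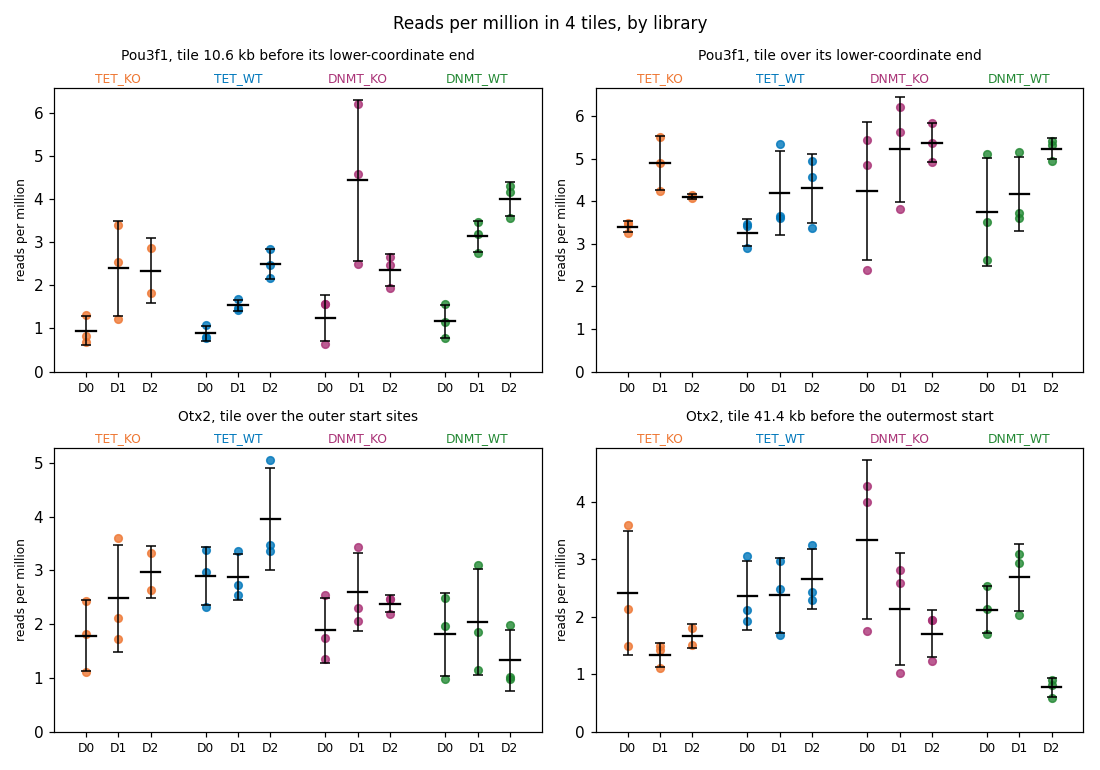
RPM in 4 tiles, with 1 point per library, a bar for the mean and whiskers for the SD, by line and day. In the tile 10.6 kb before the lower-coordinate end of Pou3f1 all D2 libraries lie above the D0 libraries of their line, over that end most days overlap, and in the tile 41.4 kb before the outermost Otx2 start the DNMT_WT D2 libraries (0.594 to 0.903 RPM) lie below those of D0 (1.71 to 2.54 RPM).

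At D1, 2 Pou3f1 tiles were called higher than at D0 in DNMT_KO and 1 in DNMT_WT (0.558% and 0.472% of all tiles), and none in TET_KO or TET_WT (0.219% and 0.178%), where 6 and 2 tiles had an unadjusted p under 0.05. None was called lower, which applied to 0.314%, 0.171%, 0.726% and 0.689% of all tiles in TET_KO, TET_WT, DNMT_KO and DNMT_WT. The tile 10.6 kb before the gene had 6.21, 4.59 and 2.50 RPM at D1 against 0.638, 1.55 and 1.55 RPM at D0 in DNMT_KO, a log2 change of 1.79 ± 0.38 (limma adjusted p = 0.00606). It had 2.75, 3.18 and 3.46 RPM at D1 against 1.15, 1.56 and 0.788 RPM at D0 in DNMT_WT, a change of 1.52 ± 0.38 (adjusted p = 0.0287). In DNMT_KO the neighbouring tile 12.6 kb before the gene had 3.62, 3.06 and 0.936 RPM at D1 against 0.478, 0.389 and 0.777 RPM at D0 and changed by 2.02 ± 0.46 (adjusted p = 0.0103). D1 was above D0 in each library of these 3 comparisons, and the DNMT_KO D1 libraries were spread more widely than those of any other group in the tile 10.6 kb before the gene (SD 1.86 RPM). The DNMT_WT call was lost without any 1 of 5 libraries (D0 replicate 1 or 3, or any D1 replicate, adjusted p up to 0.170). The DNMT_KO calls were lost without D0 replicate 1 in the tile 10.6 kb before the gene (adjusted p = 0.0836), and without D0 replicate 2 or D1 replicate 1 or 2 in the tile 12.6 kb before it (up to 0.063).

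No Pou3f1 tile was called between a knockout and its parent at any day. The limma test called 0 of 18 tiles in TET_KO against TET_WT at D0, D1 and D2, where 2, 1 and 0 tiles had an unadjusted p under 0.05. In DNMT_KO against DNMT_WT it called 0 of 18 at each day, where 2, 0 and 2 tiles had an unadjusted p under 0.05, and voom on the reads called none in either comparison. Few tiles were called anywhere in these comparisons: 0.085% higher and 0.109% lower at D0, 0.0573% and 0.063% at D1, and 0.0212% and 0.0807% at D2 for TET_KO, while for DNMT_KO 0% were called higher and 0.000708% lower at D0, 0.034% and 0.017% at D1, and 0.0092% and 0.0191% at D2.

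The change from D0 to D2 was not shown to depend on either knockout. No tile was called in the interaction of line and day, with 1 tile at an unadjusted p under 0.05 for TET_KO and 0 for DNMT_KO, and the genome-wide share of tiles with a lower change in the knockout was 0.00142% and 0.000708%. In the tile 10.6 kb before the gene, the change in TET_KO minus that in TET_WT was -0.40 ± 0.58 on the log2 scale (limma adjusted p = 1), and the change in DNMT_KO minus that in DNMT_WT was -0.82 ± 0.54 (adjusted p = 0.876). These errors leave room for differences at least as large as the estimates.

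The sums over stretches of the Pou3f1 window, which were drawn after tile levels were seen, differed in direction between DNMT_KO and DNMT_WT. The whole window overlapped at each day, with ratios of 0.898, 1.02 and 0.958 at D0, D1 and D2. In the 15 tiles before the gene DNMT_KO was below DNMT_WT at D0 and D2. This stretch had 12.3 ± 2.4 RPM in DNMT_KO against 17.3 ± 1.23 RPM in DNMT_WT at D0 (ratio 0.712) and 22.5 ± 2.41 against 29.2 ± 1.52 RPM at D2 (ratio 0.770; SD, n = 3 each), with no overlap. At D1 the ratio was 0.962 and the libraries overlapped. In the 15 tiles after the gene DNMT_KO was above DNMT_WT at D2, with 22.5 against 18.5 RPM (ratio 1.21, no overlap), and the libraries overlapped at D0 and D1.

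In TET_KO the whole Pou3f1 window was below TET_WT at D0, with 34.0 ± 2.32 against 39.3 ± 0.70 RPM (ratio 0.865, and 0.834 relative to the background of chromosome 4), without overlap. The tiles after the gene had 14.7 RPM in TET_KO against 18.2 RPM in TET_WT at D0 (ratio 0.807, and 0.779 relative to the background), without overlap. The ratio of the tiles before the gene was 0.919 at D0, 1.22 at D1 and 0.983 at D2, with overlap at each day. At D1 and D2 the whole window overlapped too (1.13 and 0.907), while relative to the background TET_KO was the lower at D2 without overlap (0.837). These differences in sums were not tested.

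Around Otx2 the days differed less than around Pou3f1, and not in the same direction in all lines. The tested tiles had a median log2 change of D2 over D0 of 0.26 in TET_KO and 0.33 in TET_WT, and of -0.30 in DNMT_KO and -0.16 in DNMT_WT. The change was positive in 10, 15, 6 and 5 of 16 tiles, and in 67, 78, 55 and 51 of all 106 tiles with no filter on level. A positive change in all 4 lines was found in 2 of the 16 tiles and a negative one in none, against 14.2% and 12.9% of all tested tiles. In 16 tiles, counts this small are near the background. The difference between the TET and the DNMT lines in these medians was not tested.

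**Figure D3:**
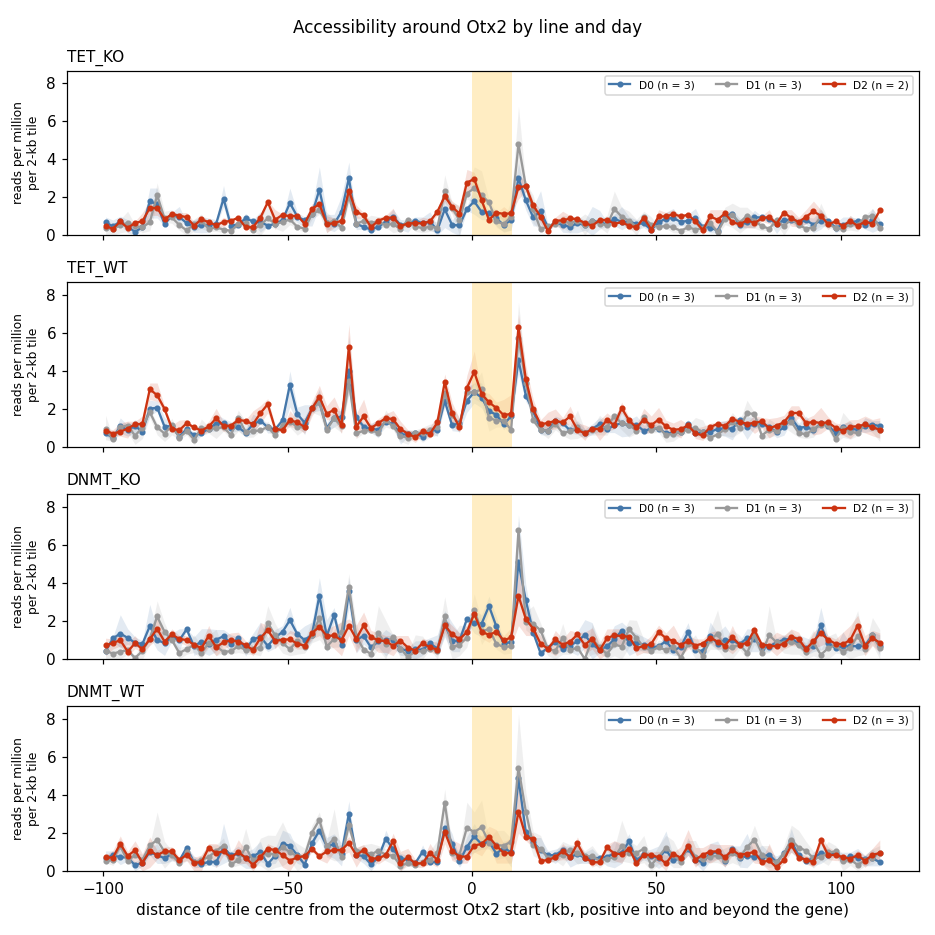
Mean RPM in each 2-kb tile around Otx2 by distance from its outermost start (kb, positive into and beyond the gene), 1 panel per line, with D0 in blue, D1 in grey and D2 in red and bands from the lowest to the highest library. The yellow bar is the gene body, and higher levels stand at 12.6 kb just beyond the gene end, over the starts, and 33.4 and 41.4 kb before the outermost start.

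Summed over the 106 tiles, the Otx2 window had 101.1 ± 2.46 RPM at D2 against 87.8 ± 9.86 RPM at D0 in TET_KO (SD, n = 2 and 3), and 157.9 ± 11.2 against 133.9 ± 2.87 RPM in TET_WT (n = 3 each). In DNMT_KO it had 109.8 ± 10.2 RPM at D2 against 115.7 ± 10.2 RPM at D0, and in DNMT_WT 95.4 ± 7.05 against 99.9 ± 3.60 RPM. The D2 libraries were above the D0 libraries in both TET lines, with ratios of 1.15 and 1.18, and the days overlapped in both DNMT lines, with ratios of 0.949 and 0.955. The tiles over the gene and its starts had D2 to D0 ratios of 1.52 in TET_KO and 1.23 in TET_WT, without overlap, and of 0.833 in DNMT_KO and 0.934 in DNMT_WT, with overlap.

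The tile over the outermost start and the start that overlaps it (chr14:48666001-48668000) had 3.32 and 2.63 RPM at D2 against 2.44, 1.11 and 1.82 RPM at D0 in TET_KO, and 3.47, 5.06 and 3.36 RPM at D2 against 2.32, 3.38 and 2.98 RPM at D0 in TET_WT. It had 2.20, 2.47 and 2.48 RPM at D2 against 2.55, 1.75 and 1.36 RPM at D0 in DNMT_KO, and 1.99, 1.02 and 0.990 RPM at D2 against 1.96, 0.975 and 2.50 RPM at D0 in DNMT_WT. D2 and D0 libraries overlapped in all lines but TET_KO. The log2 changes were 0.80 ± 0.42, 0.35 ± 0.37, 0.53 ± 0.37 and -0.36 ± 0.37 in TET_KO, TET_WT, DNMT_KO and DNMT_WT, and none passed (limma adjusted p 0.543, 0.936, 0.579 and 0.754).

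One Otx2 tile was called between the days, 41.4 kb before the outermost start in the lncRNA genes Otx2os1 and Gm38660 (chr14:48708001-48710000), and it fell in DNMT_WT. It had 0.903, 0.819 and 0.594 RPM at D2 against 2.13, 2.54 and 1.71 RPM at D0 in DNMT_WT, and 1.24, 1.94 and 1.95 RPM at D2 against 3.99, 1.75 and 4.28 RPM at D0 in DNMT_KO. It had 1.81 and 1.52 RPM at D2 against 2.13, 3.60 and 1.49 RPM at D0 in TET_KO, and 2.28, 3.25 and 2.43 RPM at D2 against 2.11, 1.93 and 3.06 RPM at D0 in TET_WT. The days were apart in DNMT_WT alone and overlapped in the other 3 lines. The log2 change in DNMT_WT was -1.42 ± 0.38 (limma adjusted p = 0.0266), and 1.71% of all tiles fell in that line. It was -0.82 in DNMT_KO (adjusted p = 0.308), -0.35 in TET_KO and 0.15 in TET_WT, which did not pass. The DNMT_WT values rest on 3 to 5 reads per library at D2, and the call was lost without D0 replicate 1 or 2 or D2 replicate 3 (adjusted p up to 0.149).

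A second tile of the same stretch, 33.4 kb before the outermost start (chr14:48700001-48702000), lay lower at D2 in both DNMT lines without passing. It had 1.92, 2.11 and 1.24 RPM at D2 against 3.67, 2.72 and 4.28 RPM at D0 in DNMT_KO, and 1.80, 1.64 and 0.990 RPM at D2 against 2.78, 2.54 and 3.68 RPM at D0 in DNMT_WT. The days did not overlap in either line, and the log2 changes were -0.93 (limma adjusted p = 0.109) and -1.02 ± 0.32 (adjusted p = 0.0713). In TET_WT it had 3.10, 6.26 and 6.46 RPM at D2 against 3.29, 2.80 and 5.87 RPM at D0, and in TET_KO 2.71 and 2.00 RPM at D2 against 3.86, 2.35 and 2.82 RPM at D0, with overlap in both.

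The tile of highest level in the window lay 12.6 kb from the outermost start, just beyond the gene end (chr14:48654001-48656000). It had 3.17 and 1.92 RPM at D2 against 2.74, 2.49 and 3.81 RPM at D0 in TET_KO, and 6.12, 6.98 and 5.87 RPM at D2 against 4.26, 3.87 and 5.62 RPM at D0 in TET_WT. It had 4.67, 1.76 and 3.54 RPM at D2 against 3.19, 7.58 and 4.47 RPM at D0 in DNMT_KO, and 4.51, 2.87 and 1.98 RPM at D2 against 5.73, 4.29 and 4.59 RPM at D0 in DNMT_WT. The days overlapped in every line but TET_WT, where D2 was the higher, and the tile was not called in any line. Across the 16 tested tiles, all D2 libraries were above all D0 libraries in 4, 2, 0 and 0 tiles in TET_KO, TET_WT, DNMT_KO and DNMT_WT, against 14.5%, 8.39%, 8.16% and 8.13% of all tiles, and below them in 1, 0, 3 and 2 tiles in TET_KO, TET_WT, DNMT_KO and DNMT_WT, against 13.6%, 9.17%, 9.29% and 8.74%.

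No Otx2 tile was called at D1 against D0 by limma in any line, with 3, 1, 1 and 1 of 16 tiles at an unadjusted p under 0.05 in TET_KO, TET_WT, DNMT_KO and DNMT_WT and none called by voom. Over all tested tiles 0.219%, 0.178%, 0.558% and 0.472% were called higher by limma in these lines. The shares called lower were 0.314%, 0.171%, 0.726% and 0.689%, so that 0 of 16 is near the background.

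Comparisons of Otx2 between lines need the level of chromosome 14 as a whole, since the reads on that chromosome differed between lines. Its background, the mean log2 reads of its untested tiles relative to the mean of all chromosomes, had a median of -0.087 in TET_KO (-0.149 to -0.046 over 8 libraries) and 0.232 in TET_WT (0.191 to 0.269 over 9). It was -0.124 in DNMT_KO (-0.239 to 0.043) and -0.182 in DNMT_WT (-0.286 to -0.116, 9 libraries each). TET_WT thus stood above the other 3 lines in every library, on every day. The medians for chromosome 4, which carries Pou3f1, were 0.0084, -0.089, -0.012 and -0.042. Whether this is a difference in the copy number of chromosome 14 was not tested, since no DNA sequence of these lines was used here.

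**Figure D4:**
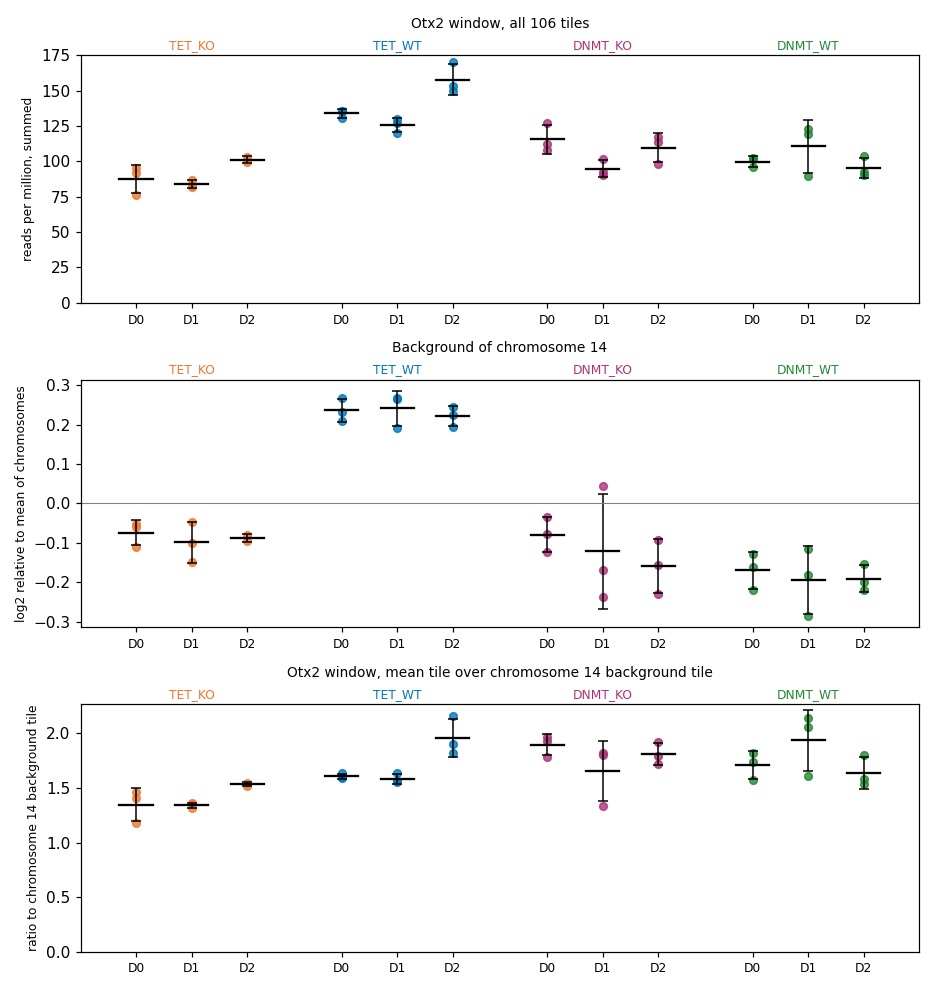
The summed RPM of the 106 Otx2 tiles (top), the background of chromosome 14 on a log2 scale relative to the mean of chromosomes (middle) and the mean Otx2 tile as a ratio to the mean background tile of chromosome 14 (bottom), with 1 point per library, bars for means and whiskers for SD. TET_WT has the highest means in the top panel, where its D1 libraries overlap those of DNMT_WT. In the middle panel all its libraries are highest (0.191 to 0.269). In the bottom panel TET_KO remains below TET_WT while the D0 and D1 libraries of DNMT_WT overlap those of TET_WT.

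In TET_KO the Otx2 window was lower than in TET_WT at each day, and the background of chromosome 14 was lower with it. At D0 it had 87.8 ± 9.86 RPM in TET_KO against 133.9 ± 2.87 RPM in TET_WT, at D1 83.8 ± 2.85 against 125.7 ± 4.92 RPM, and at D2 101.1 ± 2.46 against 157.9 ± 11.2 RPM (SD, n = 3, or 2 for TET_KO at D2). The ratios were 0.655, 0.667 and 0.641, while the chromosome background, from mean log2 reads, had ratios of 0.806, 0.790 and 0.807. The background tile used next is a mean of reads without logs. As a ratio to the mean background tile of chromosome 14, the window had 1.35 ± 0.151 in TET_KO against 1.61 ± 0.024 in TET_WT at D0, 1.34 ± 0.022 against 1.59 ± 0.047 at D1, and 1.54 ± 0.021 against 1.96 ± 0.176 at D2. TET_KO remained the lower at each day, by ratios of 0.839, 0.847 and 0.784, with no overlap of libraries.

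No single Otx2 tile was called between TET_KO and TET_WT by limma (0 of 16 at each day, with 6, 5 and 5 tiles at an unadjusted p under 0.05), while voom called 1, at D2. Over all tiles no more than 0.109% were called by limma in either direction at any day. The median log2 difference was -0.75 at D0, -0.37 at D1 and -0.62 at D2, and -0.48, -0.08 and -0.33 after the chromosome background was subtracted from each library. The sign was positive in 0, 2 and 0 of the 16 tiles before subtraction and in 2, 5 and 2 after it. Before subtraction, all TET_KO libraries were below all TET_WT libraries in 9, 7 and 11 of 16 tiles, against 9.03%, 8.15% and 14.2% of all tiles. These shares are over all chromosomes, while chromosome 14 as a whole was lower in TET_KO. The count was not made after subtraction, so it does not separate the Otx2 window from its chromosome. The lowest adjusted p was 0.144, in the tile just beyond the gene end at D2, with a difference of -1.30 ± 0.36 (-1.0 ± 0.35 after subtraction). The tile over the inner start (chr14:48662001-48664000) had a difference of -1.49 ± 0.44 at D2 (limma adjusted p = 0.214).

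DNMT_KO and DNMT_WT stood closer to each other. The Otx2 window had 115.7 ± 10.2 RPM in DNMT_KO against 99.9 ± 3.60 RPM in DNMT_WT at D0, 95.0 ± 6.07 against 110.7 ± 18.5 RPM at D1, and 109.8 ± 10.2 against 95.4 ± 7.05 RPM at D2 (SD, n = 3 each). The libraries were apart at D0 alone (ratio 1.16), and as a ratio to the background of chromosome 14 they overlapped at each day. No tile was called by limma or voom (0 of 16 at each day, with 1, 3 and 3 tiles at an unadjusted p under 0.05). Over all tiles no more than 0.034% were called by limma in either direction at any day. The tile 41.4 kb before the outermost start differed by 1.09 ± 0.38 at D2, with 1.24, 1.94 and 1.95 RPM in DNMT_KO against 0.903, 0.819 and 0.594 RPM in DNMT_WT, without overlap (limma adjusted p = 0.354).

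Neither knockout was shown to alter the change from D0 to D2 at Otx2. The interaction of line and day called 0 of 16 tiles for TET_KO (0 at an unadjusted p under 0.05) and 0 of 16 for DNMT_KO (1 at an unadjusted p under 0.05, the tile over the inner start, with -1.34 ± 0.56 in DNMT_KO minus DNMT_WT and a limma adjusted p of 0.736). Over all tiles it called 0% higher and 0.00142% lower for TET_KO, and 0% higher and 0.000708% lower for DNMT_KO, so that 0 of 16 says little.

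The parental lines differed at Otx2 on day 2, where 4 of 16 tiles were lower in DNMT_WT than in TET_WT, against 0.402% of all tiles. These were the tile over the outer starts, the tile beside it, and the tiles 33.4 and 41.4 kb before the outermost start. None of the 4 passed after the chromosome background was subtracted, when 0.139% of all tiles were called lower and 0.0651% higher. The parental lines also differed in the sum over tiles, which was 1.02 times the library total in DNMT_WT and 1.15 times in TET_WT at D0 and D2. Whether their reads were processed differently was not tested, and line and any such difference cannot be told apart.

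In the tile over the outer starts DNMT_WT had 1.99, 1.02 and 0.990 RPM at D2 against 3.47, 5.06 and 3.36 RPM in TET_WT, a log2 difference of -1.55 ± 0.37 (limma adjusted p = 0.0276). In the tile beside it, centred 1.36 kb before the outermost start (chr14:48668001-48670000), DNMT_WT had 1.26, 0.409 and 0.594 RPM at D2 against 2.92, 2.65 and 3.77 RPM in TET_WT, a difference of -2.12 ± 0.40 (limma adjusted p = 0.00255). In neither did the lines overlap. The tile 33.4 kb before had 1.80, 1.64 and 0.990 RPM in DNMT_WT against 3.10, 6.26 and 6.46 RPM in TET_WT, a difference of -1.72 ± 0.32 (limma adjusted p = 0.00216). The tile 41.4 kb before had 0.903, 0.819 and 0.594 RPM in DNMT_WT against 2.28, 3.25 and 2.43 RPM in TET_WT, a difference of -1.71 ± 0.38 (adjusted p = 0.0158). After subtraction of the chromosome background the 4 differences were -1.13, -1.67, -1.28 and -1.30, with adjusted p of 0.22, 0.051, 0.069 and 0.13. Without subtraction, the call over the outer starts was lost without any 1 of 5 libraries (any TET_WT D2 replicate, or DNMT_WT D2 replicate 2 or 3, adjusted p up to 0.119). The call 41.4 kb before was lost without any 1 of 4 (any TET_WT D2 replicate, or DNMT_WT D2 replicate 3, up to 0.0734), and the other 2 calls held without any single library.

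**Figure D5:**
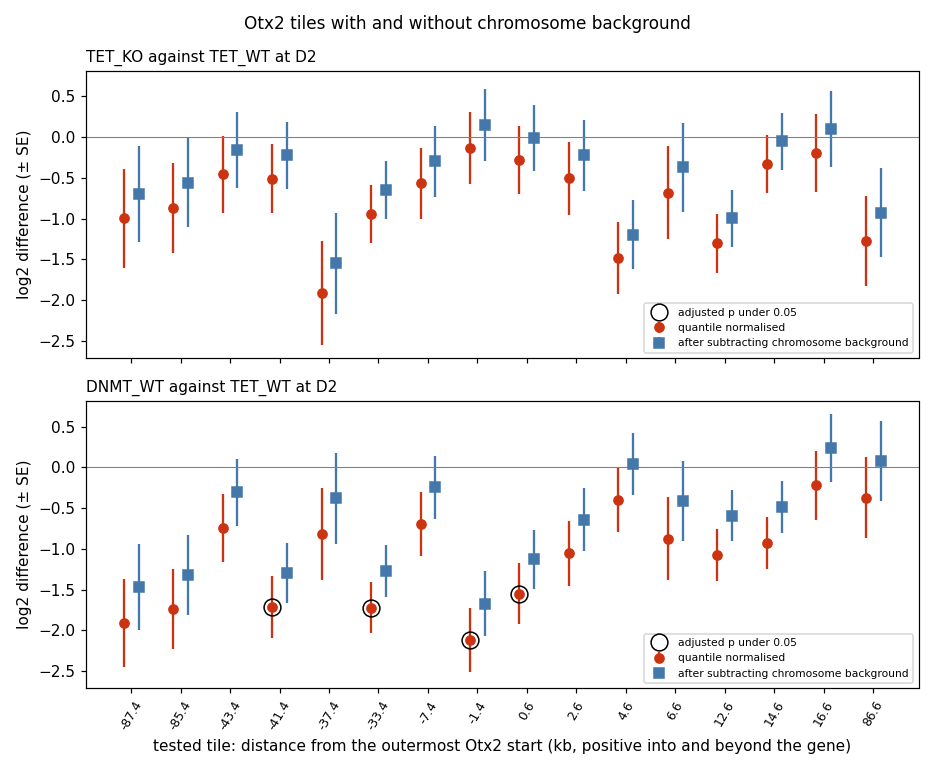
Log2 differences with SE in the 16 tested Otx2 tiles at D2, TET_KO against TET_WT above and DNMT_WT against TET_WT below, by distance from the outermost start (kb, positive into and beyond the gene). Red circles are quantile-normalised values, blue squares the values after the chromosome background was subtracted, and rings mark the 4 adjusted p under 0.05, all red and all in the lower panel.

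Over the whole window, DNMT_WT had 0.746 times the RPM of TET_WT at D0, 0.880 times at D1 and 0.604 times at D2, where the chromosome background had ratios of 0.755, 0.739 and 0.751. These background ratios come from mean log2 reads. The window was also divided by the mean reads of the untested tiles of chromosome 14, without logs. The ratio was then 1.06 at D0 and 1.22 at D1, with overlap. At D2 it was 0.836, with DNMT_WT at 1.64 ± 0.143 below TET_WT at 1.96 ± 0.176 in every library (SD, n = 3 each). The measures of background differ, so these ratios cannot be derived from the background ratios above. The median difference of the 16 tested tiles was -0.44, -0.11 and -0.99 at D0, D1 and D2, and 0.01, 0.37 and -0.54 after subtraction. Before subtraction, all DNMT_WT libraries were below all TET_WT libraries in 8, 2 and 12 tiles, against 9.72%, 8.54% and 8.60% of all tiles. These shares too are over all chromosomes, and the count was not made after subtraction. The difference of the lines in the change from D0 to D2, a comparison added after the data were seen, was -1.33 ± 0.45 in the tile 33.4 kb before the outermost start (unadjusted p = 0.00415, limma adjusted p = 0.953) and -1.57 ± 0.53 in the tile 41.4 kb before it (unadjusted p = 0.00481, adjusted p = 0.959), so the lines were not shown to differ in that change.

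At Pou3f1 the parental lines differed in 1 of 18 tiles at D0, where 0.397% of all tiles were called higher and 0.29% lower in DNMT_WT. This was the tile 26.6 kb before the gene, with 1.15, 1.95 and 1.84 RPM in DNMT_WT against 0.633, 0.676 and 0.661 RPM in TET_WT and a difference of 1.65 ± 0.43 (limma adjusted p = 0.0474). It was not called after subtraction of the chromosome background (1.61, adjusted p = 0.092), when 0.068% of all tiles were called higher and 0.0729% lower, and leaving out any of 21 of the 35 libraries lost the call (adjusted p up to 0.193).

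Other genes of the formative state, in a list of 18, were examined within 30 kb of each gene. At D2 against D0, 3 of their 290 tested tiles rose in TET_KO, 11 in TET_WT, 12 in DNMT_KO and 11 in DNMT_WT, or 1.03%, 3.79%, 4.14% and 3.79%, where 0.179%, 0.336%, 0.502% and 0.594% of all tiles rose. In the same order 3, 2, 4 and 2 fell, or 1.03%, 0.69%, 1.38% and 0.69%, where 0.927%, 0.707%, 2% and 1.71% of all tiles fell, so that the share that fell is near or below that of all tiles. The tiles that rose lay near 3, 7, 4 and 8 of the 18 genes. The medians were 0.19, 0.45, 0.36 and 0.34, below those of the Pou3f1 tiles in each line. Near Dnmt3l, a cofactor of the de novo DNA methyltransferases, 8 of 24 tiles rose in DNMT_KO, by up to 1.93 ± 0.31 (limma adjusted p = 4.55e-05). These are 8 of the 12 tiles that rose in that line. Near Fgf5, a growth factor used as the standard marker of the primitive ectoderm, 3 of 4 rose in TET_WT, by up to 2.04 ± 0.51 (limma adjusted p = 0.0259). For these 2 genes the counts are of 1 line each, and a difference from the other lines is not implied. Near Utf1, a chromatin-associated pluripotency factor, 1, 2, 1 and 3 of 20 tiles rose, by up to 2.99 ± 0.49 in DNMT_WT (adjusted p = 8.41e-05). A tile near Foxd3, a forkhead factor of pluripotent cells and neural crest, fell in all 4 lines, by 3.31, 3.04, 1.78 and 2.72 on the log2 scale.

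Near 15 genes of the naive state, the called tiles were all lower at D2 and most tiles did not pass. Of 324 tested tiles, 32 fell in TET_KO, 19 in TET_WT, 36 in DNMT_KO and 36 in DNMT_WT at D2, or 9.88%, 5.86%, 11.1% and 11.1%, where 0.927%, 0.707%, 2% and 1.71% of all tiles fell, and none rose. The tiles that fell lay near 10, 9, 9 and 9 of the 15 genes. The medians were -0.48, -0.43, -0.47 and -0.49. Near Tfcp2l1, which encodes a CP2-family factor that sustains naive self-renewal, 9, 8, 11 and 7 of 37 tiles fell, by up to 3.27 in TET_KO, and near Esrrb, an orphan nuclear receptor active in naive cells, 8, 2, 9 and 11 of 50.

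Among the relatives of Otx2 and Pou3f1 (Otx1, Crx, Pou3f2, Pou3f3 and Pou3f4), 2 of 40 tested tiles were called at D2 against D0, both in DNMT_WT, 1 in each direction, where 0.594% of all tiles rose and 1.71% fell. A tile near Otx1 rose by 2.34 ± 0.44 (limma adjusted p = 0.000677) and a tile near Pou3f3, like Pou3f1 a POU factor of the nervous system, had a change of -1.57 ± 0.45 (adjusted p = 0.0451). For other cell types, tiles called near 8 neuroectoderm genes were 0, 0, 2 and 1 of 116 higher and 0, 0, 1 and 0 lower. Near 6 primitive endoderm genes 0 of 52 were higher in each line and 0, 0, 1 and 3 lower, near 6 fibroblast genes 0 of 43 higher and 0, 0, 0 and 1 lower, and near 5 core pluripotency genes 0, 0, 1 and 1 of 123 were higher and 1, 0, 1 and 0 lower. Over all tiles 0.179%, 0.336%, 0.502% and 0.594% were higher and 0.927%, 0.707%, 2% and 1.71% lower, so that 1 or 2 calls in lists of this size say little. Their part in the results at Otx2 and Pou3f1 was not tested.

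The genes whose mean tile level was most like that of Otx2 (9 tiles within 30 kb) over the 12 groups of line and day were Klhl11 (Pearson r = 0.924), Camk2g (0.916), Zfp719 (0.911), Rtraf (0.902) and Prokr1 (0.901), of 19002 genes. Camk2g and Rtraf lie on chromosome 14 too, whose background differs between the lines. Those most like Pou3f1 (18 tiles) were Sez6l2 (0.944), Hadhb (0.944), Cdiptos (0.939), Adgrf3 (0.932) and Cdipt (0.925). Sez6l2, Cdiptos and Cdipt are neighbours on chromosome 7, and Hadhb and Adgrf3 on chromosome 5, so that their tiles are partly shared. The 12 points share libraries and depth, and these values are descriptions.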

How the data were processed

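The authors deposited log2 RPKM values for 2-kb tiles, per the file headers. Trim Galore 0.6.5, cutadapt 2.3, Bowtie2 2.4.1 and GRCm38 are named in the record, per the submitters' processing notes. Masking, duplicates and any shift of read ends are "not given in the sources used here". Values were whole multiples of 1 read (tolerance 0.01 read, 0.9 read for an empty tile) in 100% of tiles at D0 and D2 and in 99.9984 to 99.9985% at D1, which gave back the reads.

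The test covered the highest 10% of tiles by mean (131690, minimum log2 RPKM -0.55) and 9551 more over starts of protein-coding genes, 141241 in all. A strand was known for 17274 of 21631 such genes, and for the others, Pou3f1 among them, the tiles over both ends were taken. After quantile normalisation, limma 3.58.1 under R 4.3.3 was used with its trend option and 1 mean for each line and day. The residual degrees of freedom were 23 and the median prior was 33.4. All tests were 2-sided, in 20 contrasts, of which 1 was added after the data were seen. The chromosome background is the mean log2 reads of the untested tiles of a chromosome relative to the mean of chromosomes. On simulated data for TET_WT at D2 against D0, 66% of tiles lowered 4-fold and 64% of those raised 4-fold were found, 4% and 0% at 2-fold, with 0 false calls in 141241 tiles. The simulated reads had a fixed spread and the same mean profile in all groups, with no other difference of line, day or chromosome. Only tiles above a minimum of mean reads were changed. These rates may therefore not hold for the real libraries.

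Named tiles were those called, those over gene starts and ends, and those of high level outside the genes. The stretches summed (before, over and after a gene) were drawn after tile levels were seen. Members, lists and tests were chosen with earlier results of these data known. Replicate numbers did not pair the libraries: residuals of same-numbered libraries correlated at -0.14 to 0.16. Alternatives were the deposited values, subtraction of the chromosome background, other filters, a larger pseudocount, voom, thinned reads, the replicate block, each contrast alone and each library left out.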

Additional observations from a re-analysis of the deposited data

How the results depend on the processing

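Counts of called tiles depended on how the reads were modelled. The shares of all tiles called under these alternatives are not given in this paragraph. A count under an alternative can therefore not be set against its own background, and is a description only. Around Pou3f1, the 5 calls at D2 against D0 became 1 with the deposited values, 3 among the highest 5% of tiles, 1 with no filter, 0 with reads thinned to 3204696 per library and 1 with the groups of each contrast alone. With voom the count was 5 as well, of which 3 were among the 5 of limma. The 3 calls at D1 against D0 became 8 with the deposited values and 0 with thinned reads or each contrast alone. The 1 call between the parental lines became 0 with the deposited values, after subtraction of the chromosome background, among the highest 5% of tiles, with no filter, with a pseudocount of 3 reads, with thinned reads and with each contrast alone. Around Otx2, the 1 call at D2 against D0 became 0 with no filter, voom, thinned reads and each contrast alone. The 0 calls at D1 against D0 became 3 with the deposited values and 2 with no filter, and the 0 calls between knockout and parent became 1 with voom. The 4 calls between the parental lines became 0 after subtraction of the chromosome background, 2 with no filter, 2 with voom, and 0 with thinned reads or each contrast alone. The cause of these changes was not tested. With 1 library left out at a time, these counts ran from 4 to 6, 2 to 4, 0 to 1, 0 to 1, 0 to 0, 0 to 0 and 2 to 4 in the order given here, and the other counts (Pou3f1 between knockout and parent, and both interactions) were 0 throughout. With the replicate block every count was the same as without it: 5, 3 and 1 around Pou3f1, and 1, 0, 0 and 4 around Otx2. Of 13460 alternative values of 300 tile results, 13075 kept their sign and side of the threshold, 106 lost the call and 15 gained one. In 264 a value that was not called changed sign, 19 of them among the 300 values after subtraction of the chromosome background, and no called value changed sign. Few reads per tile limit what single tiles can show.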

Other observations

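Farther from Otx2, 2 neighbouring tiles 85.4 and 87.4 kb before the outermost start, within Otx2os1, were higher at D2 than at D0 in TET_WT. Their summed level was 5.79 RPM at D2 against 4.11 RPM at D0 in TET_WT (ratio 1.41, no overlap), and 2.89 against 3.43 RPM in TET_KO, 2.64 against 2.74 RPM in DNMT_KO and 1.89 against 1.82 RPM in DNMT_WT, with overlap. At D1 the sum in TET_WT was 2.90 RPM against 4.11 RPM at D0 (ratio 0.707), lower without overlap, and the tile 85.4 kb before the start had a positive log2 change of D2 over D0 in all 4 lines. At D2, DNMT_WT had 0.327 times the level of TET_WT, and 0.454 times relative to the background of chromosome 14, and TET_KO 0.499 and 0.612 times, without overlap in either. No single tile of these passed the limma test: DNMT_WT minus TET_WT at D2 was -1.73 (adjusted p = 0.0824) and -1.91 (adjusted p = 0.0816). The 2 tiles were singled out after their values were seen.

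From 7 to 44 kb before the outermost Otx2 start, the summed level in DNMT_WT was 17.8 RPM at D2 against 21.6 RPM at D0 (ratio 0.823, no overlap), while the days overlapped in TET_KO (1.10), TET_WT (1.18) and DNMT_KO (0.880). DNMT_KO was above DNMT_WT in this stretch at D2 by a ratio of 1.16, without overlap, and by 1.11 relative to the background of chromosome 14. These differences in sums were not tested.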
